A study of Mus musculus with 20 samples.

Results

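The comparison described here set the diaphragms of mice injected with long carbon nanotubes (LNT, titled NTL in the sample labels) against those of mice injected with the vehicle alone (VC). It rests on 8 of the 20 arrays of the series, chosen by their titles, with 4 arrays per group and 1 mouse on each array. All mice were female C57Bl/6 animals, 8 weeks old when 100 μL was injected into the pleural cavity. The LNT mice received 5 μg per mouse suspended in saline with 0.5% BSA, and the VC mice received that BSA/saline alone. The diaphragm was taken 12 weeks after the injection and a piece was snap frozen for RNA, so that muscle, pleural lining, and any tissue formed on it entered the same extract. In such bulk tissue, fewer cells of a type, less RNA per cell, and a smaller share of the extract beside other tissue cannot be told apart. The remaining 12 arrays hold mice given 5 μg of short nanotubes (SNT), 25 μg of long amosite asbestos (LFA), or 25 μg of short amosite asbestos (SFA). They served to estimate the spread between mice and for a comparison by fiber type at the end.

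The diaphragm is a thin sheet of skeletal muscle whose upper face belongs to the parietal pleura and is covered by mesothelial cells. Fluid and particles leave the pleural space through small openings in this lining that lead to lymphatic vessels, and fibers too long for the openings are retained there. Macrophages that cannot enclose a long fiber are known to release chemokines, cytokines, proteases, and oxidants, and matrix-producing fibroblasts and antibody-forming cells are textbook companions of such persistent inflammation.

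Array values are given as log2 of the signal relative to the 75th percentile of the array, so that 0 is the 75th percentile. Differences between groups are log2 changes, LNT minus VC, with the standard error (SE) of limma's fit across all probes and with the p-value adjusted by Benjamini and Hochberg. A call required a change of at least 2-fold and an adjusted p under 0.05, and a gene with several probes is represented by the brightest one that was tested. The largest change of any named gene was that of Calca, whose transcript encodes calcitonin and, by alternative splicing, the neuropeptide CGRP. The array holds the following probes for Calca, printed 5′ to 3′ as the files give them, because their changes differed in size:
Calca probe at chr7:121775204-121775263: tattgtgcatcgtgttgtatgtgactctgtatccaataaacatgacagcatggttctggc
Calca probe at chr7:121776948-121777007: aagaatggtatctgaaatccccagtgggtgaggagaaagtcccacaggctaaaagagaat
Both lie on the minus strand of build NCBI37. For the first probe, which is the brighter, the VC mice measured −3.46, −2.97, −3.81, and −3.68 and the LNT mice 3.37, 4.01, 1.97, and 4.11. No LNT mouse came near a VC mouse, and the change of 6.85 ± 0.63 (SE) corresponds to 115-fold (limma, adjusted p = 9.93e-06). The second probe changed by 2.72 ± 0.51 (adjusted p = 0.00359). Which of the spliced products each probe measures was not assigned.

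Tissue identity was checked first. The muscle genes Tnnc2, Tnni2, Acta1, and Mb, which encode troponins, skeletal α-actin, and myoglobin, had VC means of 9.95, 9.87, 9.58, and 9.50 and LNT means of 9.37, 9.08, 8.73, and 8.74. Both groups were thus dominated by striated muscle transcripts, as a diaphragm is. Between 53.0% and 65.3% of the spots were well above background on the VC and LNT arrays. Their signal at the 75th percentile ran from 294 to 648 in VC and from 530 to 996 in LNT, so the LNT arrays were on the whole brighter. A slide held VC 1, VC 2, and LNT 1, another held VC 3 and LNT 2 to LNT 4, and VC 4 lay on a slide without LNT arrays. RNA of uneven integrity leaves a shift between probes at the 5′ and 3′ ends of a transcript, and an index of this balance over 2261 transcripts was, among the VC and LNT arrays, lowest in VC 2 (−0.39) and LNT 2 (−0.39). Liver transcripts varied greatly between mice of every group. Albumin (Alb) measured 6.68, −1.09, −0.72, and 0.98 in VC and 5.40, 2.11, 7.15, and 6.43 in LNT, with no called change among 20 tested liver markers (median change 2.14).

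Of 36930 probes tested, 2514 were called between LNT and VC (6.81%), 1340 higher in LNT and 1174 lower. By gene, 1526 of 18549 were called (8.23%), with 855 higher (4.61%) and 671 lower (3.62%). Increases were the larger changes. Among the higher genes the median change was 1.77 and 329 reached 4-fold, whereas among the lower genes the median was −1.26 and 53 reached 4-fold. At 16-fold there were 31 higher genes and 1 lower gene. Every LNT mouse lay above every VC mouse for 804 of the genes called higher and below every VC mouse for 652 of those called lower. Over all tested genes, 8.12% separated in this way upward and 14.1% downward. Of the 8073 probes for long intergenic noncoding RNAs, 1.07% were called higher and 2.44% lower, and of the other 28857 probes 4.35% and 3.39%.

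The balance between the directions depended on the scaling. The median change of all genes was −0.18, and quantile normalization moved it to −0.02 and gave 1026 higher and 319 lower genes. Of the genes listed above, 811 of the 855 higher and 302 of the 671 lower ones were called again after quantile normalization. Without VC 2, LNT 1, or LNT 4, the count of lower genes was 323, 314, and 262. Within the slide that held VC 1, VC 2, and LNT 1, all 855 higher genes and all 671 lower genes had the same direction as over all arrays, with median changes of 1.70 and −1.53. The slide of VC 3 and LNT 2 to LNT 4 gave the same directions for all of them, with medians of 1.62 and −1.08. The genes were called on these same arrays, and 804 and 652 of them separated the groups completely. Their shared direction within slides was thus largely fixed in advance and is no separate support.

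**Figure D1:**
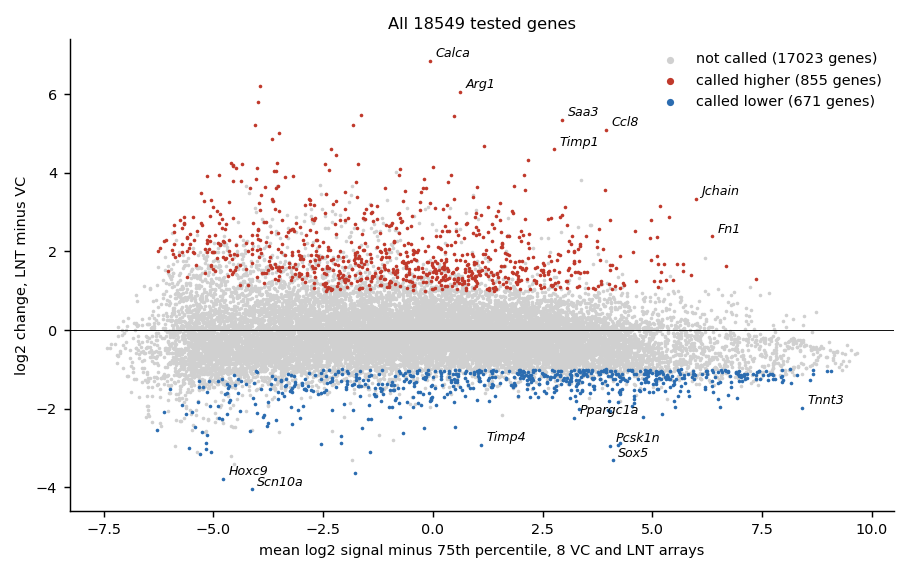
Change between LNT and VC (log2, vertical axis) against the mean level over the arrays (log2 signal relative to the array's 75th percentile, horizontal axis) for 18549 genes, with called genes in color. The 855 genes called higher reach larger changes than the 671 called lower, and Calca stands at the top with 6.85.

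Several of the genes with the largest increases were not well above background in any VC mouse, so that only a lower bound of their change can be given. The bound sets the LNT mean against, on each VC array, the lowest signal among probes well above background or the probe's own signal if that was higher. Fam162b, which encodes a membrane protein of unassigned role, was at least 16.6-fold higher (adjusted p = 1.51e-06). The LNT mice measured −1.01, −0.06, −1.97, and −1.34 and the VC mice between −7.17 and −6.10. Olr1, the gene of the scavenger receptor LOX-1 that takes up oxidized lipoprotein, was at least 12.9-fold higher (adjusted p = 3.56e-06), with LNT values from −2.23 to −0.46. Mmp12, the macrophage metalloelastase, was at least 16.2-fold higher (adjusted p = 0.0145), and LNT 3 with 1.91 stood above the other LNT mice at −1.47, −2.03, and −2.45. Its call was lost when the background was corrected by normexp or array brightness entered the fit. A probe labeled Tff1, the gene of a secreted trefoil peptide, was at least 19.7-fold higher (adjusted p = 0.000173). The files place that probe on chromosome 5, whereas the gene lies on chromosome 17, so its identity is uncertain.

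Other large increases started from a measurable level in most VC mice. Saa3, a serum amyloid made outside the liver in the mouse, measured 1.10, 0.60, −0.00, and −0.61 in VC and 5.36, 5.47, 5.53, and 6.12 in LNT, a change of 5.35 ± 0.57 (adjusted p = 3.99e-05). Timp1, the secreted inhibitor of metalloproteinases, measured 0.24, 1.32, −0.13, and 0.39 in VC and 5.41, 5.97, 3.52, and 5.30 in LNT. Its change of 4.6 ± 0.55 was 24.2-fold (adjusted p = 0.000104). Timp4, another inhibitor of the same family, which striated muscle is known to produce, went the other way, from 3.08, 2.78, 2.32, and 2.01 in VC to −0.70, −0.50, 0.27, and −0.58 in LNT, a 7.59-fold decrease (adjusted p = 0.000938). Neither gene had a LNT value within the VC range. Cthrc1, a secreted protein of activated fibroblasts, was 22-fold higher (4.46 ± 0.70, adjusted p = 0.000949) and was well above background in 2 of the 4 VC mice. The 4 LNT mice measured 0.43, 1.22, −1.93, and 0.33.

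**Figure D2:**
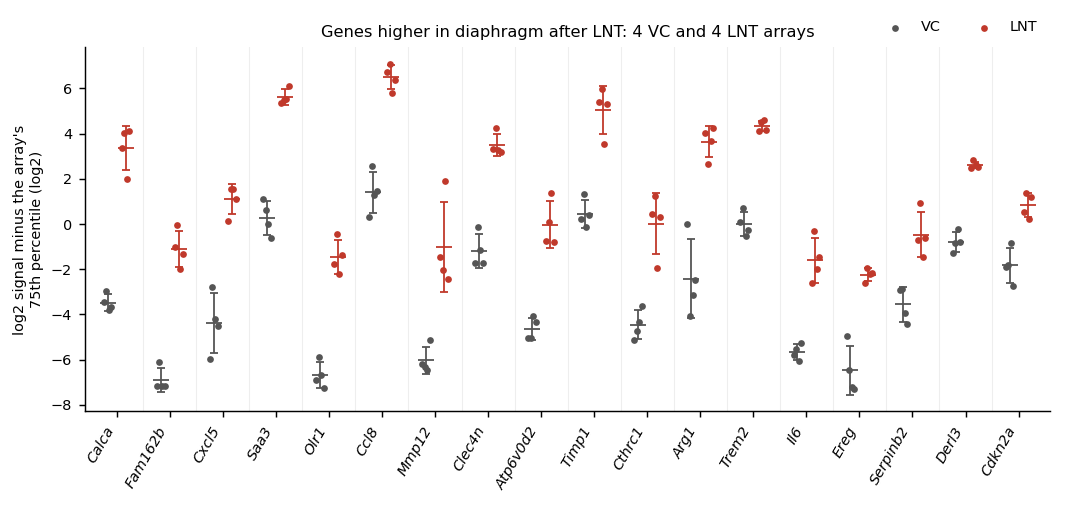
Level of 18 genes (log2 signal relative to the array's 75th percentile, vertical axis) in the 4 VC and 4 LNT mice, with points for mice and bars for mean ± SD. For every gene drawn the LNT mice lie above the VC mice; the distance is largest for Calca, from −3.48 to 3.37 on average.

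Chemokines, the secreted proteins that draw leukocytes along a gradient, formed one of the groups with the most members called. Among CC chemokines, which act mainly on monocytes, macrophages, and lymphocytes, 10 of 17 tested genes rose and 0 fell, with a median change of 2.43 against −0.18 over all genes. Over all genes 4.61% were called higher and 3.62% lower, the shares to set beside the counts of this and later lists. Complete separation of the groups held upward for 8.12% of all genes and downward for 14.1%. Ccl8, a ligand for monocytes and T cells, rose most in this family, from values between 0.32 and 2.55 in VC to 6.74, 7.08, 5.81, and 6.37 in LNT (34.2-fold, adjusted p = 2.45e-05). The monocyte attractants Ccl2, Ccl7, and Ccl12 rose by 2.43 ± 0.40, 2.91 ± 0.53, and 3.34 ± 0.60. Ccl2, the ligand of the monocyte receptor CCR2, measured 0.15, 1.92, 0.70, and 0.57 in VC and 2.74, 3.70, 3.14, and 3.47 in LNT. Ccl6 and Ccl9, a pair found in rodents, were already expressed in VC at 3.94 ± 0.51 and 2.50 ± 0.36 (SD, n = 4) and rose by 2.86 and 2.57. Ccl3, a ligand of CCR1, was well above background in 1 VC mouse and in all LNT mice, where it measured −2.17, −1.27, −0.27, and −1.21 (change 3.91 ± 0.50, adjusted p = 0.000188). The eosinophil attractant Ccl11 measured 1.7 in VC and 1.4 in LNT on average and was not called (adjusted p = 0.73), and the T cell attractant Ccl5 was not called at 1.17 (adjusted p = 0.18).

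Among CXC and other chemokines, 8 of 16 rose and 0 fell (median 1.26), and 5 were called without VC 4, LNT 2, or LNT 4. The neutrophil attractants led this list. Cxcl5 rose from −5.99, −2.79, −4.22, and −4.53 in VC to 0.14, 1.56, 1.53, and 1.13 in LNT (44.3-fold, adjusted p = 0.000225). Cxcl3, well above background in 0 VC mice and 3 LNT mice, was at least 3.02-fold higher (adjusted p = 0.00345), and Cxcl2, in 0 VC mice and 4 LNT mice, at least 2.34-fold (adjusted p = 0.0131), and both lost their call under normexp correction. Cxcl13, which attracts B cells and organizes lymphoid tissue, measured 1.86, 2.62, 3.19, and 1.45 in VC and 3.76, 4.54, 4.50, and 4.52 in LNT (2.05 ± 0.50, adjusted p = 0.0172). Without VC 4 or LNT 4 its adjusted p was 0.0557 and 0.0533. Cxcl12, the homeostatic ligand of CXCR4, changed by −0.40 and the interferon-induced Cxcl9 by −0.24, neither of them called.

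On the receiving side, 6 of 20 chemokine receptors rose and 0 fell (median 1.29). Ccr2 rose by 1.92 (adjusted p = 0.0066) and Cx3cr1, the fractalkine receptor of monocytes and resident macrophages, by 2.39 (adjusted p = 0.0025). Ccr1, not well above background in any VC mouse, was at least 1.77-fold higher (adjusted p = 0.00598), but under normexp correction it changed by 0.24 and was not called (adjusted p = 0.497). Cxcr2, the neutrophil receptor for the ligands named above, missed the threshold at 1.75 (adjusted p = 0.0535).

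Among cytokines and growth factors of inflammation, 10 of 25 rose and 0 fell (median 0.97). Il6, whose product drives acute phase synthesis through STAT3, measured −5.79, −5.53, −6.06, and −5.24 in VC, where 1 mouse was well above background, and −2.63, −0.29, −2.0, and −1.48 in LNT. The change of 4.06 ± 0.50 was 16.6-fold (adjusted p = 0.000135). Il1b, the pyrogenic product of the inflammasome, rose from values between −4.24 and −2.40 to −1.28, 0.64, 0.96, and −0.45 (3.38 ± 0.72, adjusted p = 0.00796). Tnfsf11 (RANKL), which drives osteoclast formation, was at least 4.01-fold higher (adjusted p = 0.0064). The type 2 cytokine Il13 and the inhibitory cytokine Il10 were at least 1.62-fold and 2.80-fold higher (adjusted p = 0.00372 and 0.00085), neither of them well above background in VC. Under normexp correction Tnfsf11, Il13, and Il10 were not called, with changes of 0.58, 0.09, and 0.27 (lowest adjusted p = 0.135). Of 27 cytokine receptors and signal transducers, 11 rose and 0 fell (median 0.86). Il1r1, the signaling receptor for IL-1, rose from −0.02, −1.5, 0.10, and 0.09 to 2.21, 2.61, 1.93, and 2.40 (6.16-fold, adjusted p = 0.00105), and the decoy receptor Il1r2 by 2.82 ± 0.66 (adjusted p = 0.0145). Csf2rb, the common β chain for GM-CSF, IL-3, and IL-5, rose 5.71-fold (adjusted p = 6.66e-05). Stat3 itself measured 3.9 ± 0.36 in VC and 4.04 ± 0.44 in LNT (SD, n = 4; adjusted p = 0.796), whereas its feedback inhibitor Socs3 rose by 1.48 (adjusted p = 0.0067).

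Receptors that recognize microbes and damaged cells moved with the chemokines. Of 22 pattern recognition receptors, 10 rose and 0 fell (median 1.26), among them the formyl peptide receptors Fpr1 and Fpr2 by 2.83 and 2.28, the lipopolysaccharide co-receptor Cd14 by 2.36, and Tlr13 and Tlr1 by 2.41 and 2.18. Tlr2 rose by 1.51 (adjusted p = 0.019, and 0.0566 without VC 1, 0.0595 without VC 4, and 0.0579 without LNT 2), whereas Tlr4 at 0.51 (adjusted p = 0.25), Tlr9 at −0.39, and the inflammasome sensor Nlrp3 at 0.33 were not called. Of 15 C-type lectin receptors, which bind sugars on microbes and dying cells, 9 rose and 0 fell (median 1.63). Clec4n (dectin-2) rose 25.8-fold, from −1.73, −0.13, −1.17, and −1.71 in VC to 3.32, 4.24, 3.27, and 3.19 in LNT (adjusted p = 5.74e-05). Clec4e (Mincle), Clec4d, and Clec7a (dectin-1) rose 13.6-fold, 12.5-fold, and 11.9-fold, each with all LNT mice above all VC mice. The mannose receptor Mrc1 rose from 1.98 ± 0.42 to 4.24 ± 0.47 (SD, n = 4; adjusted p = 0.00183). The 4 tested Cd209 genes, relatives of DC-SIGN, were not called and changed by −0.41 to 0.50.

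Antibodies and cell debris are sensed by receptors that signal through ITAM motifs. Of 20 tested Fc receptors and ITAM signaling genes, 15 rose and 0 fell (median 2.03), and 17 had every LNT mouse above every VC mouse. Trem2, a lipid-binding receptor of macrophages that signals through the adaptor encoded by Tyrobp, measured 0.09, 0.71, −0.53, and −0.25 in VC and 4.13, 4.50, 4.58, and 4.15 in LNT. Its change of 4.34 ± 0.39 was 20.2-fold (adjusted p = 8.99e-06). The immunoglobulin G receptors Fcgr4, Fcgr2b, Fcgr1, and Fcgr3 rose by 3.50, 3.22, 2.84, and 2.45. Fcgr2b is the inhibitory member, and measured 0.61, −1.29, 0.21, and 0.16 in VC against 3.16, 3.23, 2.86, and 3.34 in LNT (9.34-fold, adjusted p = 0.00155). The adaptors Tyrobp and Fcer1g, already at 3.6 and 2.8 in VC, rose by 1.99 and 2.07. The inhibitory receptors Lilrb4a and Pirb rose by 3.12 and 2.20. The kinase Syk (1.12, adjusted p = 0.077) and the receptor Trem1 (0.73, adjusted p = 0.087) were not called.

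Among scavenger receptors and lipid handling genes, 8 of 23 rose and 0 fell (median 1.06). Marco, a scavenger receptor for particles, rose from 1.14, 2.35, 3.13, and 1.95 in VC to 4.62, 5.85, 6.24, and 6.10 in LNT (11.8-fold, adjusted p = 0.000203). Msr1, the class A scavenger receptor, rose by 3.01 (adjusted p = 0.0012). Gpnmb, a glycoprotein of lipid-laden macrophages, rose by 3.75 ± 0.78 (adjusted p = 0.00679), with LNT 3 at 4.61 far from the other LNT mice at 1.48, 1.52, and 1.29. Ch25h and Abcg1, which make 25-hydroxycholesterol and export cholesterol, rose by 1.80 and 1.48. Genes of this list that muscle and fat also express in quantity were not called, with Lpl at −1.10 (adjusted p = 0.072), Fabp4 at −0.73, and Cd36 at −0.44.

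Macrophage markers rose in 15 of 20 tested genes and fell in 0 (median 2.19). The mean over the 20 markers, relative to the VC mean, ran from −0.15 to 0.16 in the VC mice and from 1.85 to 2.11 in the LNT mice. Within the slide of VC 1, VC 2, and LNT 1 the median was 1.89, and within that of VC 3 and LNT 2 to LNT 4 it was 1.81. Cd68, the lysosomal glycoprotein of macrophages, measured 1.74, 2.74, 2.50, and 2.20 in VC and 4.22, 4.62, 5.73, and 4.16 in LNT (5.22-fold, adjusted p = 0.000393). Adgre1, a surface receptor of mature macrophages, rose 5.49-fold (adjusted p = 0.000911), and Csf1r, the receptor for the growth factor of macrophages, rose from 4.71 ± 0.40 to 6.39 ± 0.14 (SD, n = 4; adjusted p = 0.00033). Vsig4, a complement receptor of resident macrophages, rose by 3.67 ± 0.86, and the sialic acid receptor Siglec1 by 3.18 ± 0.57. Of 2 tested Siglec1 probes the other changed by 1.03 and was not called. Cd163 was not called, with a change of 0.03.

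Genes of alternative activation of macrophages, the program known from interleukin-4 and interleukin-13, rose in 10 of 14 and fell in 0 (median 2.05), and 6 were called without LNT 1 or LNT 4. Chil4, a chitinase-like lectin, measured −6.37, −4.23, −5.24, and −4.73 in VC, where 1 mouse was well above background, and −1.45, −2.74, −1.74, and −2.27 in LNT (3.09 ± 0.50, adjusted p = 0.00125). Ccl17, a ligand for type 2 helper T cells, rose from between −2.15 and 0.17 to between 1.21 and 1.82 (2.51 ± 0.47, adjusted p = 0.00319). Rnase2a, an eosinophil-associated ribonuclease, rose by 3.02 (adjusted p = 0.00081). The defining gene of the list, Arg1 (arginase), measured 0.01, −4.07, −3.14, and −2.48 in VC and 4.01, 2.68, 3.65, and 4.25 in LNT, a change of 6.07 ± 1.56 (adjusted p = 0.0237). Its adjusted p was 0.0712 without VC 2, 0.0528 without VC 3, 0.0511 without VC 4, 0.0628 without LNT 1, and 0.069 without LNT 4. Arg1 is also a main enzyme of liver, and the VC mouse with the highest Arg1 was the one with the highest Alb. The means of 20 liver markers relative to the VC mean were 3.38, −1.32, −1.63, and −0.43 in VC and 1.78, −0.59, 3.44, and 2.99 in LNT, and their part in the Arg1 result was not tested. LNT 2 had a liver mean within the range of VC 2 to VC 4, but an Alb value above theirs. Its Arg1 value of 2.68 was the lowest among the LNT mice.

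The effector genes of phagocytes rose in several classes. In the list of phagocyte oxidase and nitric oxide synthase genes, 7 of 11 rose and 0 fell (median 1.28). The oxidase subunits Ncf1, Cybb, and Ncf4 rose by 2.51, 2.0, and 1.91, and the inducible nitric oxide synthase Nos2 was not called at −0.27 (adjusted p = 0.54). Of 26 genes of lysosome and proton pump, 11 rose and 0 fell (median 0.93). Atp6v0d2, the pump subunit of osteoclasts and macrophages, rose from −5.05, −5.03, −4.08, and −4.36 to −0.77, 0.08, 1.39, and −0.81 (24.2-fold, adjusted p = 0.0023). Its ubiquitous relative Atp6v0d1 changed by 0.06. Cathepsin S (Ctss) rose 6.92-fold, from 3.58 ± 0.70 to 6.37 ± 0.34 (SD, n = 4; adjusted p = 0.000206), and the osteoclast protease Ctsk by 1.77, whereas cathepsin D (Ctsd, −0.09) and Lamp1 (−0.10) were not called. Among 16 osteoclast and giant cell genes, 3 rose and 1 fell (median 0.002), with 2 called without LNT 2. The fusion gene Dcstamp at 0.89 (adjusted p = 0.23), Acp5 (TRAP) at −0.08, and the calcitonin receptor Calcr at −1.02 (adjusted p = 0.0532) were not called.

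Lipid mediators, complement, and coagulation came next. Of 17 genes of prostaglandin and leukotriene synthesis, 8 rose and 1 fell (median 1.07). Ptgs2 (cyclooxygenase 2) rose from between −5.05 and −4.11 in VC to −2.56, −1.43, −1.84, and −1.78 in LNT (5.77-fold, adjusted p = 0.00259). Hpgds and Tbxas1, which make prostaglandin D2 and thromboxane, rose by 2.79 and 2.26, and Alox5 (5-lipoxygenase) by 1.72. Tbxas1 was tightly spaced, at −0.08 to 0.52 in VC and 2.38 to 2.55 in LNT. The gene that fell was Ptges2 (−1.22, adjusted p = 0.015), whose call was lost after quantile normalization. Of 21 complement components and receptors, 8 rose and 1 fell (median 1.15). The C1q chains C1qa, C1qb, and C1qc rose by 2.26, 2.14, and 1.88, and the anaphylatoxin receptor C5ar1 rose from −2.54, −1.81, −2.65, and −2.80 to −0.16, 0.19, 0.02, and 0.04 (5.55-fold, adjusted p = 0.000193). C3, the central component, was at 8.5 in VC and 8.9 in LNT and was not called (adjusted p = 0.41). The one member that fell was Cfd (adipsin), a product of fat cells (−1.27, adjusted p = 0.046), and it was not called after quantile normalization or without any single VC or LNT mouse other than VC 4 (adjusted p from 0.052 to 0.157), nor with the replicate block (0.073). Among 16 genes of fibrinolysis and coagulation 4 rose and 0 fell, including Serpinb2, the intracellular inhibitor of plasminogen activators, from between −4.44 and −2.87 to −0.72, 0.93, −1.47, and −0.62 (8.44-fold, adjusted p = 0.000375). Coagulation factor VII (F7) measured −2.66, −3.77, −4.76, and −4.15 in VC and 0.42, −0.33, 0.92, and 0.58 in LNT (18.8-fold, adjusted p = 0.0297). It is a liver product, the part of the liver transcripts in its change was not tested, and its adjusted p was 0.0624 without VC 2, 0.0698 without VC 3, 0.0646 without VC 4, 0.0693 without LNT 1, 0.0699 without LNT 3, and 0.0771 without LNT 4.

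Of 18 acute phase and antimicrobial proteins, 4 rose and 0 fell (median 0.37, and −0.18 with array brightness in the fit). Besides Saa3 these were Saa1, from 0.24, 1.06, −0.38, and −0.49 to 3.67, 4.6, 3.56, and 4.34 (15.3-fold, adjusted p = 0.00312), Serpina3n (3.62 ± 0.75, adjusted p = 0.00663), and Serpina3g (2.39, adjusted p = 0.015, and 0.0531 without LNT 4). Saa1 and Serpina3n are also liver products, and the part of the liver transcripts given above was not tested. LNT 2 had the lowest liver mean of the LNT mice and the highest Saa1 value, but its Alb value lay above those of VC 2 to VC 4. Members that mark neutrophil granules were not called: Camp changed by −1.06, Ltf by −1.0, Ngp by −1.25, and S100a8 by 0.06.

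Interferon-stimulated genes rose in 7 of 26 and fell in 0 (median 0.80), with 4 called without VC 1 or LNT 1 and 3 without LNT 4. Mx1, an antiviral GTPase, rose from −3.91, −1.88, −3.01, and −2.57 to 0.02, 0.78, −0.24, and 0.64 (8.84-fold, adjusted p = 0.00448), and Zbp1, a sensor of Z-form nucleic acid, 5.82-fold (adjusted p = 0.00161). Oas1a and Oas2 rose by 2.01 and 1.60, and Oas2 had an adjusted p of 0.0579 without LNT 4. Common members of the list were not called, among them Isg15 (1.02, adjusted p = 0.19), Ifit1 (0.30), and Gbp2 (0.15). In the major histocompatibility complex class II pathway 5 of 14 rose and 0 fell, but 3 were called with the replicate block, 3 without VC 3, and 1 or 2 without any other single VC or LNT mouse except VC 2. Its largest increase was that of Ctss, a protease and not a class II chain. The invariant chain Cd74 changed by 0.75 (adjusted p = 0.32) and the β chain H2-Ab1 by 0.88 (adjusted p = 0.09), and neither was called. The count of the list thus does not stand for the class II chains themselves. B2m, the light chain of class I molecules, was not called at 0.68 (adjusted p = 0.33).

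Integrins and leukocyte adhesion genes rose in 8 of 17 and fell in 0 (median 1.35). Itgb2, the common β2 chain, rose by 2.39 (adjusted p = 0.00027), Itgax (CD11c) by 2.47, and Itgal (LFA-1) by 1.19 (0.95 and not called under normexp correction), while Itgam (CD11b) was not called at −0.60. Of 3 tested Itgal probes 2 were called, and their changes ran from −0.49 to 1.79. On the side of the vessel wall, Vcam1 and Selp rose by 1.76 and 1.54. The pan-endothelial gene Pecam1 was not called (−0.18, adjusted p = 0.89).

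Other leukocytes were read from their own marker lists. Plasma cell and immunoglobulin genes rose in 7 of 13 and fell in 0 (median 1.65), and the mean over the list, relative to VC, ran from −0.47 to 0.35 in VC and from 1.40 to 2.40 in LNT. Derl3, a component of the endoplasmic reticulum degradation machinery of secretory cells, measured −1.29, −0.82, −0.24, and −0.79 in VC and 2.49, 2.82, 2.59, and 2.54 in LNT (10.5-fold, adjusted p = 2.45e-05). Jchain, the joining chain of polymeric antibodies, rose 10.1-fold, from 4.33 ± 0.35 to 7.66 ± 0.31 (SD, n = 4; adjusted p = 0.000206). Mzb1, a chaperone of antibody assembly, and Tnfrsf17 (BCMA), the survival receptor of plasma cells, rose 7.12-fold and 7.70-fold. Probes labeled Igh-VJ558 and Igkv4-53, for variable segments of the heavy and light chain, rose 43.7-fold (adjusted p = 0.003, well above background in 3 of 4 VC mice) and at least 15.0-fold (adjusted p = 0.00485). Near-identical immunoglobulin segments can share a probe, so the segment itself is uncertain. B cell markers rose in 2 of 18 and fell in 0 (median 0.34, and −0.45 within the slide of VC 3 and LNT 2 to LNT 4), and 1 was called without VC 1, VC 4, LNT 2, or LNT 4.

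T cell markers rose in 4 of 22 and fell in 1 (median 0.81), with 2 called in all without VC 1 or LNT 2 and 3 without VC 4 or LNT 4. Cd3e measured 1.25, −0.13, 1.13, and 0.73 in VC and 1.5, 0.07, 0.96, and 1.14 in LNT, so that the groups overlapped (adjusted p = 0.861). Pdcd1, the inhibitory receptor PD-1 of activated T cells, rose from −4.58, −2.81, −2.85, and −3.21 to −0.89, −0.22, −0.58, and −0.39 (7.18-fold, adjusted p = 0.00183). Of 14 cytotoxic and natural killer cell markers, 3 rose and 0 fell, including Klrg1 by 2.60 ± 0.39 and Gzmb (granzyme B) by 1.95 ± 0.36 (0.51 and not called under normexp correction), while Nkg7 changed by −0.24 (adjusted p = 0.64) and Prf1 (perforin) by −0.30 (adjusted p = 0.61). Of 15 granulocyte markers 0 were called in limma, and 2 had an unadjusted p under 0.05. Their mean relative to VC was −1.03, −0.66, 1.15, and 0.54 in VC and −0.26, 0.43, 0.05, and 0.24 in LNT, and the sign of their median (0.09) turned under normexp correction, with slide or scan day as a block, with array brightness in the fit, and without VC 1. Ly6g, the neutrophil surface antigen, measured 0.12 ± 0.55 in VC and 0.89 ± 0.20 in LNT (SD, n = 4; adjusted p = 0.221). Among 11 mast cell and basophil markers, Hdc, the enzyme that makes histamine, rose by 1.32 ± 0.26 (adjusted p = 0.00532) and Gata2 fell by 1.09 on the log2 scale (adjusted p = 0.014, lost with another percentile for scaling and under normexp correction), while Kit and the mast cell proteases Cpa3, Cma1, and Mcpt4 changed by −0.43 to 0.61 and were not called.

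**Figure D3:**
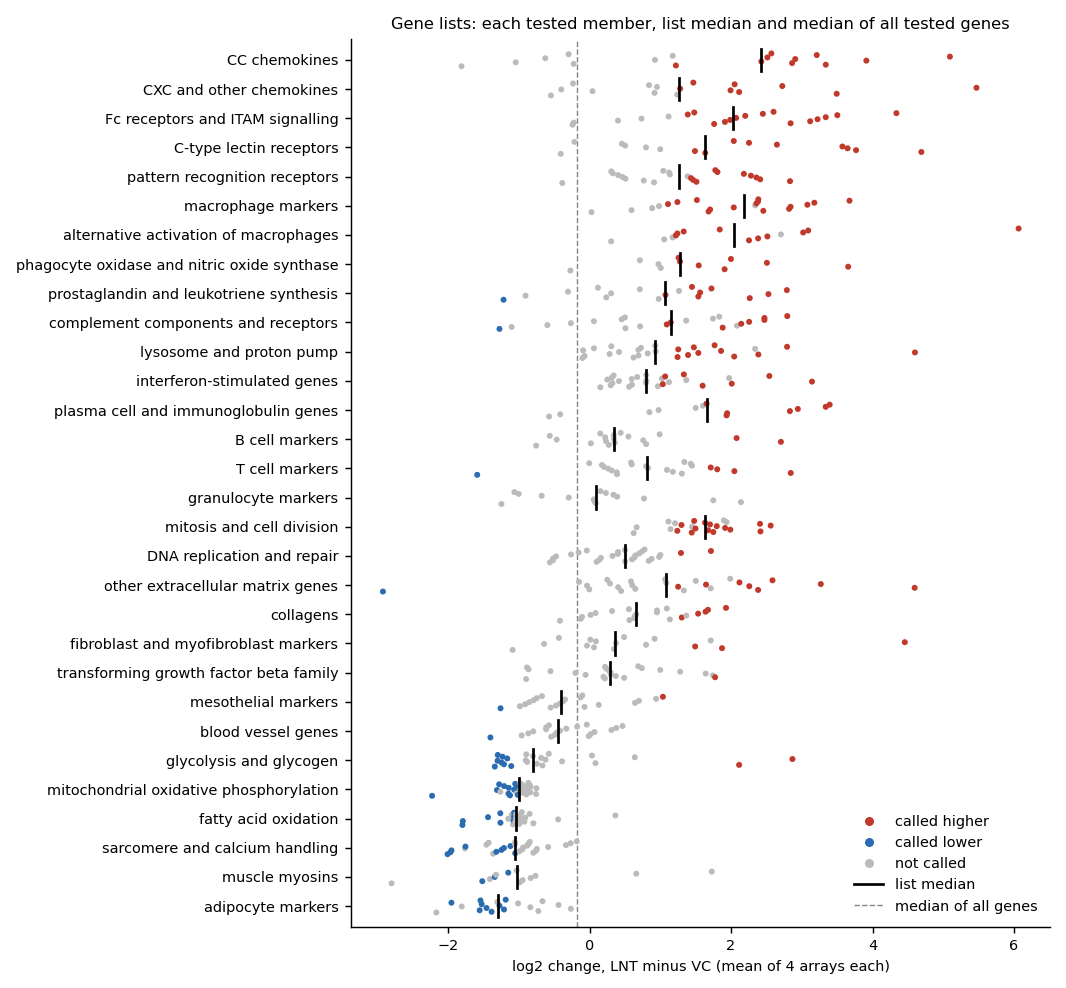
Change between LNT and VC (log2, horizontal axis) of each tested member of 30 gene lists, one row per list, with genes called higher in red, called lower in blue, and others in gray. The black bar marks the list median and the dashed line the median of all genes (−0.18) and the list medians drawn run from 2.43 for CC chemokines to −1.29 for adipocyte markers.

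In the extracellular matrix, collagens rose in 5 of 21 and fell in 0 (median 0.66), with 3 called without LNT 1. The fibrillar chains accounted for all of them: Col5a2 by 1.93, Col1a1 by 1.67, Col3a1 by 1.64, Col5a1 by 1.53, and Col1a2 by 1.3. Without LNT 1 the adjusted p of Col5a1 and Col1a2 was 0.0571 and 0.0528, and that of Col5a1 was 0.0679 without VC 2, 0.0564 without LNT 2, and 0.0704 without LNT 4. Col1a1 measured 4.56, 4.68, 5.36, and 4.81 in VC and 6.49, 7.10, 5.98, and 6.54 in LNT (3.19-fold, adjusted p = 0.0117). The basement membrane chains Col4a1 and Col4a2 changed by 0.01 and −0.11 and were not called. Of 25 other extracellular matrix genes, 8 rose and 1, Timp4, fell (median 1.08). Fibronectin (Fn1) rose 5.21-fold, from 4.89, 5.81, 5.10, and 4.88 to 7.40, 8.28, 6.97, and 7.55 (adjusted p = 0.01), thrombospondin 1 (Thbs1) by 2.59 ± 0.55, the collagen cross-linking enzyme Lox by 2.26, and the proteoglycan versican (Vcan) by 2.12. Decorin (Dcn), Sparc, and elastin (Eln) changed by −0.04, 0.29, and −0.00 and were not called.

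Among 19 matrix metalloproteinases and ADAM proteases, 5 rose and 0 fell (median 0.93). Besides Mmp12 these included the stromelysin Mmp3, from −0.12, 1.77, −0.85, and −0.93 to 2.91, 3.76, 2.84, and 2.45 (8.14-fold, adjusted p = 0.00249), Adam8 (2.50, adjusted p = 0.00052), and Adamts4 (2.14, adjusted p = 0.00058). The gelatinases were not called, with Mmp9 at −0.15 and Mmp2 at 1.10 (adjusted p = 0.23). In the transforming growth factor beta family 1 of 22 rose, namely the matrix protein Ltbp2 (1.77, adjusted p = 0.015, and 0.0561 without LNT 4). That share lies near the 4.61% of all genes called higher. The ligand Tgfb1 changed by 0.30 (adjusted p = 0.74) and the target Ccn2 by 0.49 (adjusted p = 0.52). Fibroblast and myofibroblast markers rose in 3 of 16, namely Cthrc1, the collagen-binding lumican (Lum, 1.49, adjusted p = 0.014), and S100a4 (1.87, adjusted p = 0.017, and 0.0527 without VC 1, 0.0524 without VC 4, and 0.0542 without LNT 2). The myofibroblast actin Acta2 was not called at −0.64 (adjusted p = 0.2), nor was Pdgfra at 0.92, which missed the 2-fold threshold.

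Genes of mitosis and cell division rose in 15 of 23 and fell in 0 (median 1.63), and 15 had every LNT mouse above every VC mouse, against 8.12% of all genes. Melk, a kinase of dividing cells, measured −5.01, −4.49, −3.84, and −4.58 in VC and −2.10, −0.85, −2.83, and −1.91 in LNT (5.90-fold, adjusted p = 0.00535). Cdk1, the kinase that drives entry into mitosis, rose 3.77-fold, from between −4.05 and −2.85 to −1.84, −1.22, −2.12, and −1.66 (adjusted p = 0.00183). The checkpoint kinase Bub1 and the centrosomal kinase Nek2 rose by 2.41 and 2.42. Under normexp correction Cdk1, Bub1, and Nek2 lost their calls, with changes of 0.99, 0.64, and 0.54, and Nek2 lost its call with array brightness in the fit. Mki67, the proliferation antigen, was not called, with −0.58, −0.33, 1.68, and 0.27 in VC overlapping 0.77, 1.69, −0.95, and 2.18 in LNT (adjusted p = 0.529). DNA replication and repair genes rose in 2 of 27 (median 0.50), with 1 called without VC 1, LNT 2, or LNT 4 and 4 without VC 3 or LNT 3. The 7.4% called in this list lies near the 8.23% of all genes called in either direction. Mcm2, a subunit of the replicative helicase, was not called at 0.63 (adjusted p = 0.166), nor was Pcna at 0.32.

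Of 26 tumor suppressors and G1 checkpoint genes, 3 rose and 0 fell (median 0.06), with 1 called without VC 1, LNT 1, or LNT 4. Cdkn2a, which encodes p16INK4a and p19ARF, measured −1.92, −1.80, −0.84, and −2.75 in VC and 0.52, 1.38, 0.24, and 1.17 in LNT, with no overlap (6.31-fold, adjusted p = 0.00167). Its neighbor Cdkn2b changed by 0.92 (adjusted p = 0.13) and the p53 target Cdkn1a by 0.94 (adjusted p = 0.076). Nf2, the merlin gene, measured 0.63 ± 0.27 in VC and 0.16 ± 0.29 in LNT (SD, n = 4; adjusted p = 0.425), and Bap1 and Trp53 changed by −0.67 and −0.16, neither of them called.

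Among 30 genes of Src, PI3K, Akt, and MAP kinase signaling, 7 rose and 0 fell (median 0.19). Ereg, an EGF receptor ligand, rose most, from −4.94, −6.44, −7.22, and −7.28 in VC, where 1 mouse was well above background, to −2.61, −1.93, −2.22, and −2.18 in LNT (4.23 ± 0.83, adjusted p = 0.00482). With most VC mice near background this size is uncertain, and it was 1.24 under normexp correction. The PI3K subunits of leukocytes rose, with Pik3cg by 2.24 ± 0.43 (adjusted p = 0.00423) and Pik3r5 by 1.99 (adjusted p = 0.00045), whereas the ubiquitous Pik3ca and Pik3cb changed by −0.01 and −0.05. Likewise the Src family kinases of myeloid cells Fgr and Lyn rose by 2.06 and 1.10 (Lyn was not called under normexp correction), and Src and Fyn at 0.39 and 0.74 were not called. Egr2, a transcription factor of the immediate early list, rose by 2.0 ± 0.35 (adjusted p = 0.00225), and Nr4a1, an orphan nuclear receptor, fell 3.59-fold (adjusted p = 0.00997, lost with array brightness in the fit). Fos changed by 0.15 (adjusted p = 0.89).

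Markers of the pleural lining and of blood vessels were called at shares near that of all genes. The shares were 10% for mesothelial markers and 5% for blood vessel genes, against 8.23% of all genes in either direction. Of 20 mesothelial markers, 1 rose (Pdpn, 1.04, adjusted p = 0.0495) and 1 fell (Cldn15, −1.26, adjusted p = 0.0488), and 0 of these were called with the replicate block (0.0579 and 0.0612). Without VC 1, VC 3, VC 4, LNT 1, LNT 2, or LNT 4 neither gene was called (adjusted p from 0.0568 to 0.143), Cldn15 was not called without VC 2 (0.125) or LNT 3 (0.0643), and leaving out single arrays of the other groups ended either call as well. Cldn15 was not called under either alternative scaling or normexp correction. Msln, the mesothelial antigen mesothelin, measured 4.88, 5.96, 4.80, and 5.18 in VC and 4.89, 5.17, 4.73, and 4.53 in LNT (adjusted p = 0.556). Wt1, a transcription factor of mesothelium, measured 2.94 ± 0.60 in VC and 3.64 ± 0.49 in LNT (SD, n = 4; adjusted p = 0.311). Among 20 blood vessel genes 0 rose and 1 fell, namely Vegfb, from 4.49, 4.70, 4.68, and 4.83 to 3.23, 3.01, 3.80, and 3.05 (2.65-fold, adjusted p = 0.00833, lost after quantile normalization), and 2 were called without VC 2 or LNT 3. Over all genes 3.62% were called lower. The mean over the 20 vessel genes, relative to VC, ran from −0.17 to 0.10 in VC and from −0.40 to −0.30 in LNT. Their median change was −0.44, against −0.18 over all genes. The lymphatic regulator Prox1 changed by 0.47 (adjusted p = 0.76).

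The receptor side of the calcitonin family did not follow Calca. Calcitonin and CGRP act through receptors of the same family, which RAMP proteins tune to one ligand or the other. Ramp1, the partner that makes the CGRP receptor, measured 3.14, 3.56, 3.31, and 3.50 in VC and 1.73, 1.53, 2.22, and 1.61 in LNT, a 3.04-fold decrease without overlap (adjusted p = 0.0077). Of 3 tested Ramp1 probes only this brightest 1 was called, and their changes ran from −1.60 to −0.26. Calcb, which encodes β-CGRP, measured −3.43, −1.99, −2.69, and −2.78 in VC and −0.18, −0.02, −1.75, and −0.22 in LNT, and its change of 2.17 ± 0.69 was not called (adjusted p = 0.0611). The CGRP receptor Calcrl and the adrenomedullin gene Adm changed by −0.63 and −0.02, and Ramp2 and Ramp3 by −0.49 and 0.97, all of them without a call.

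Among the genes with the largest decreases were several known from neurons. Scn10a, the voltage-gated sodium channel of pain-sensing nerve cells, measured −2.22, −0.96, −2.80, and −2.44 in VC and was not well above background in any LNT mouse, at least 9.64-fold lower (adjusted p = 0.00381). Pcsk1n, an inhibitor of the protease that matures neuropeptides, fell from 5.77, 6.55, 5.21, and 4.50 to 2.32, 2.61, 2.04, and 3.31 (7.66-fold, adjusted p = 0.00665). Unc13c, a synaptic vesicle protein, and Asic2, an acid-sensing ion channel, fell by 3.10 ± 0.53 and 2.56 ± 0.50 on the log2 scale, each well above background in 1 LNT mouse and 4 VC mice. Of the 12 nerve and Schwann cell markers (median −0.50) 2 fell, namely Prx (−1.04, adjusted p = 0.015) and Ncmap (−1.26, adjusted p = 0.023), while 4 changed upward without a call. Tubb3, Ngfr, Nefh, and Uchl1 changed by 0.97, 0.62, 0.08, and −0.31 and were not called, so the list does not show a general loss of nerve transcripts. Prx was not called under quantile or percentile scaling or normexp correction. Without VC 2, 0 were called, and without LNT 1, LNT 3, or LNT 4 the adjusted p of Ncmap was 0.0721, 0.0636, and 0.0637. Hoxc9, a homeobox gene of thoracic body segments, measured −3.63, −3.06, −2.47, and −2.37 in VC and −5.20, −7.11, −7.02, and −7.32 in LNT (adjusted p = 0.000513). A single LNT mouse was well above background for Hoxc9. Bex4, Spata33, and Spa17 fell by 2.90, 2.68, and 2.48 on the log2 scale, and Hrk, a promoter of apoptosis, was at least 2.66-fold lower (not called under normexp correction). Slc26a3, an anion exchanger, and Ankrd34b also met the rule for the largest decreases (adjusted p = 0.0269 and 0.0214), but each lost its call after quantile normalization (Ankrd34b also under normexp correction) and without VC 2 (adjusted p = 0.0847 and 0.0652), VC 4 (0.0629 and 0.0505), LNT 1 (0.0602 and 0.0606), or LNT 4 (0.066 and 0.0697). Slc26a3 lost it also without LNT 2 (0.0549) or LNT 3 (0.0611).

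**Figure D4:**
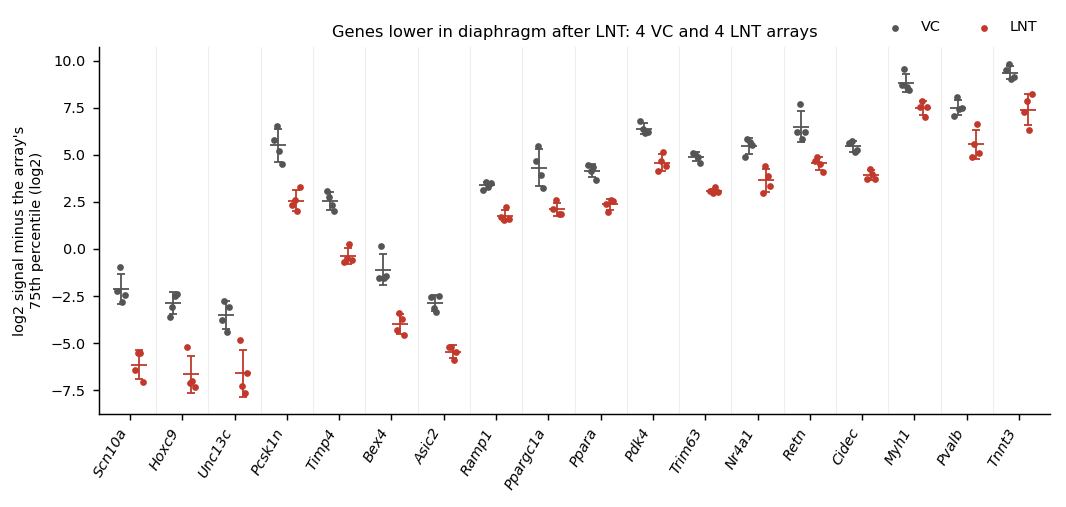
Level of 18 genes (log2 signal relative to the array's 75th percentile, vertical axis) in the 4 VC and 4 LNT mice, with points for mice and bars for mean ± SD. For every gene drawn the LNT mice lie below the VC mice, with Pcsk1n falling from 5.51 to 2.57 and Tnnt3 from 9.38 to 7.41 on average.

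Sox5, Cplx2, and Vash1 stand among the 15 named genes with the largest decreases only through probes built from repeats of A and G, and their decrease is uncertain. Of 36930 tested probes, 23 have a sequence of A and G alone, and 15 of these were called lower and 0 higher (median change −2.82). The sequences are shown because, for Cplx2 and Vash1, a probe of mixed sequence gave a smaller change. For Sox5 the repeat probe was the only one tested. Repeats of GGA are in capitals:
Sox5, called lower: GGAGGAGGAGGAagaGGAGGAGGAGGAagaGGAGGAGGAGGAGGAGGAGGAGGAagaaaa
Cplx2, called lower: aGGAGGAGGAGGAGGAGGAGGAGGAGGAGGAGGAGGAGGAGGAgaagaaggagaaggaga
Cplx2, not called: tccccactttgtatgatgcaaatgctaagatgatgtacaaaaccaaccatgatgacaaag
Vash1, called lower: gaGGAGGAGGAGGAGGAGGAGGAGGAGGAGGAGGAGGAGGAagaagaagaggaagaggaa
Vash1, not called: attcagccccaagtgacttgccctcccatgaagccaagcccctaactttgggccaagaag
The probes called lower changed by −3.32 for Sox5, −2.92 for Cplx2, and −2.87 for Vash1. The Cplx2 probe of mixed sequence, at chr13:54485200-54485259, changed by −0.56 ± 0.26 (adjusted p = 0.192), and that of Vash1, at chr12:88032981-88033040, by −0.85 ± 0.51 (adjusted p = 0.334). The files place the repeat probe of Vash1 at chr6:16808968-16809027, on another chromosome than the gene.

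Decreases in muscle were broad and moderate, and many lay near the threshold. Genes of sarcomere and calcium handling rose in 0 of 28 and fell in 9 (median −1.05), and 20 had every LNT mouse below every VC mouse, against 14.1% of all genes. The mean over the 28 genes, relative to VC, ran from −0.20 to 0.23 in VC and from −1.15 to −1.08 in LNT. Tnnt3, the troponin T of fast fibers, measured 9.49, 9.83, 9.05, and 9.16 in VC and 7.26, 7.85, 6.32, and 8.22 in LNT (3.92-fold lower, adjusted p = 0.00476). Pvalb, the calcium buffer parvalbumin of fast fibers, fell 3.87-fold (adjusted p = 0.0114). The count of 9 became 2 after quantile normalization, 5 with the replicate block, 3 without VC 2 or LNT 1, 5 without VC 4 or LNT 3, 4 without LNT 4, and 14 without SNT 4. Among 13 muscle myosins 3 fell (median −1.03, and −0.46 after quantile normalization), including Myh1, the heavy chain of fast IIX fibers, from 8.71, 9.54, 8.59, and 8.47 to 7.55, 7.84, 6.99, and 7.56 (2.54-fold, adjusted p = 0.00572). Myh1 was not called after quantile normalization. Myh4, of IIB fibers, measured 4.23, 2.79, 5.55, and 1.34 in LNT and was not called (adjusted p = 0.0525). Myosin heavy chain genes are closely alike in sequence, and whether their probes bind more than 1 of them was not tested.

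Of 22 genes of muscle regeneration, denervation, and atrophy, 2 rose and 1 fell (median −0.48), with 1 called without LNT 4. Trim63 (MuRF1), a ubiquitin ligase of the sarcomere known from atrophy, fell from 5.12, 5.07, 4.87, and 4.59 to 3.07, 3.0, 3.27, and 3.05 (3.52-fold, adjusted p = 0.0044). Its companion Fbxo32 (atrogin-1) changed by −0.75 (adjusted p = 0.1). Myog, the transcription factor of differentiating muscle cells, changed by 0.43 (adjusted p = 0.61) and the satellite cell gene Pax7 by −0.46 (adjusted p = 0.57).

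Genes of mitochondrial oxidative phosphorylation rose in 0 of 30 and fell in 13 (median −1.0), and 22 had every LNT mouse below every VC mouse. The list mean relative to VC was −0.16, 0.78, −0.31, and −0.31 in the VC mice, with VC 2 the highest, and −1.13, −0.76, −0.93, and −1.33 in LNT. Ppargc1a, the coactivator PGC-1α that promotes mitochondrial genes, fell most, from 4.68, 5.50, 3.93, and 3.22 to 2.11, 2.61, 1.85, and 1.84 (4.68-fold, adjusted p = 0.0044). Ndufa1, a subunit of complex I of the respiratory chain, was not called at −1.03 (adjusted p = 0.103). The count of 13 was sensitive to the processing: 1 gene was called after quantile normalization, 1 without VC 2, 3 without LNT 1, 7 without LNT 3, and 1 without LNT 4. Relative to the median of all genes, the list median was −0.43 after quantile normalization, and −1.41 and −0.62 without that reference within the slides of LNT 1 and of LNT 2 to LNT 4.

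Fatty acid oxidation genes rose in 0 of 24 and fell in 8 (median −1.05), with 2 called after quantile normalization and 5 without VC 2, LNT 1, or LNT 4. Ppara, the lipid-sensing nuclear receptor that controls this pathway, fell from 4.45, 4.14, 4.36, and 3.69 to 2.37, 1.97, 2.59, and 2.54 (3.47-fold, adjusted p = 0.0031). Pdk4, the kinase that turns muscle from glucose to fat, fell 3.48-fold, from 6.39 ± 0.30 to 4.59 ± 0.44 (SD, n = 4; adjusted p = 0.00645). Ppargc1a, Ppara, and Pdk4 kept their calls under each scaling tried. Cpt1b, the gate of fatty acids into muscle mitochondria, changed by −1.15 without a call (adjusted p = 0.057). Glycolysis and glycogen genes fell in 8 of 23 and rose in 2 (median −0.80), with 0 called lower after quantile normalization and, in both directions, 5, 6, and 4 called without VC 2, LNT 1, and LNT 4. The muscle form Pgam2 fell by 1.3 on the log2 scale (not called after quantile normalization), whereas the leukocyte hexokinase Hk3 and the transporter Slc2a6 rose 4.33-fold and 7.30-fold (adjusted p = 0.0102 and 3.99e-05). Hk1 was not called at −0.80 (adjusted p = 0.19).

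Adipocyte markers, genes typical of fat cells, rose in 0 of 18 and fell in 9 (median −1.29). The mean relative to VC ran from −0.05 to 0.03 in VC and from −1.64 to −1.05 in LNT. Retn, the adipokine resistin, measured 6.22, 7.72, 5.84, and 6.22 in VC and 4.69, 4.89, 4.52, and 4.09 in LNT (3.88-fold lower, adjusted p = 0.00468). Cidec, a lipid droplet protein, and Dgat2, which makes triglyceride, fell by 1.53 and 1.46 on the log2 scale (adjusted p = 0.00341 and 0.003), and Dgat2 lost its call after quantile normalization. Adipoq (adiponectin) fell by 1.39 (adjusted p = 0.036, and above 0.05 without VC 1, VC 2, VC 4, LNT 1, LNT 3, or LNT 4, at 0.0630, 0.109, 0.0691, 0.0880, 0.0715, and 0.120, at 0.0831 after quantile normalization, and at 0.0582 with the replicate block), and Fabp4 changed by −0.73 (adjusted p = 0.2). The count of 9 became 3 after quantile normalization and 5 with the replicate block or without VC 1, VC 2, LNT 1, LNT 3, or LNT 4.

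Smaller decreases touched clock genes and blood. Of 18 circadian clock genes 0 rose and 3 fell (median −0.65), with 1 called without VC 3 or LNT 3. Dbp, a clock output gene, was not called at −1.12 (adjusted p = 0.084), nor were Clock and Arntl at 0.39 and 0.37. The hour at which the mice were killed is not given in the sources used here. Among 9 red blood cell and heart markers 2 fell (median −1.43), and 0 were called with the replicate block, after quantile normalization, or without VC 3, VC 4, LNT 1, LNT 4, SFA 1, SFA 3, or SNT 1, 1 without VC 1, VC 2, LNT 2, SFA 4, LFA 4, or SNT 3, and 5 without LFA 2. The globin gene Hba-a1 changed by −1.0 without a call (adjusted p = 0.14). Of 25 genes of iron handling and antioxidant defense 0 rose and 1 fell, the latter not called without VC 2, LNT 1, or LNT 4, after quantile normalization, or with another percentile for scaling, and Hmox1 (heme oxygenase 1) at 0.92 stayed under the 2-fold threshold.

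Called genes also lay next to each other on the chromosomes, in runs of at least 5 genes called in the same direction, each within 200 kb of the next (build NCBI37). At chr6:122884578-123232937 all 7 tested genes, the lectin receptors Clec4a1, Clec4a3, Clec4a4, Clec4b1, Clec4n, Clec4d, and Clec4e, were called higher, with a median change of 2.65. At chr1:172890988-173828368 12 of 34 were higher, including the receptors Fcgr2b, Fcgr4, Fcgr3, and Fcer1g and the SLAM family members Ly9, Slamf7, Cd48, and Cd84 (median 2.12). The chemokine genes Ccl9, Ccl6, Ccl3, and Ccl4 with Wfdc17 and Wfdc18 made 6 of 7 at chr11:83388223-83524810 (median 2.83). Cxcl5, Cxcl3, Cxcl1, Cxcl2, and Ereg lay at chr5:91190490-91522612 as 5 of 10 (median 3.49; the adjusted p of Cxcl1 was 0.0544 without LNT 2), and the antiviral Oas2, Oas3, Oas1c, Oas1f, and Oas1a at chr5:121180343-121346794 as 5 of 7 (median 2.01). Further higher runs held genes of the Ms4a family (7 of 13 on chromosome 19), the paired receptors Pirb and Pira (7 of 8 on chromosome 7), and Cd300 genes (5 of 7 on chromosome 11). A lower run of 6 of 16 at chr19:6985503-7272492 held Esrra and Vegfb (median −1.27). Without single arrays, calls within the runs were lost for Clec4b1 (VC 1 or LNT 1), Clec4a4 (VC 1 or LNT 2), Oas3 (LNT 4), Oas1c (VC 1, VC 4, LNT 2, or LNT 4), and Esrra (VC 2, LNT 1, or LNT 4), with adjusted p from 0.0505 to 0.063, and Esrra was also not called after quantile normalization. Clec4a4, Slamf7, Cxcl2, Cxcl3, Oas3, Oas1c, and Esrra were not called under normexp correction. Neighbors of a gene family can share sequence, and whether a probe binds more than 1 member was not tested.

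Promoters of the higher genes were read for the binding motif of PU.1 (GGAAGTG), the master factor of macrophages, and of AP-1 (TGACTCA), a factor of activated cells, on both strands of the 300 bases around each start. RefSeq promoters of GRCm38.p6 were found for 13560 of the 18549 tested genes. The PU.1 letters occurred in 15.05% of 751 promoters of genes called higher, 9.02% of 632 of genes called lower, and 12.98% of all 17006. The AP-1 letters occurred in 5.73%, 4.27%, and 4.18%. Most promoters of genes called higher thus held neither motif. The promoters of Calca (chr7:114636308-114636607), Cd68 (chr11:69666121-69666420), and Olr1 (chr6:129507116-129507415), all on the minus strand, are printed 5′ to 3′ because they hold a match and belong to genes described above. Capitals mark PU.1 (GGAAGTG, or CACTTCC on the other strand) and AP-1 (TGACTCA, or TGAGTCA on the other strand):
Calca promoter: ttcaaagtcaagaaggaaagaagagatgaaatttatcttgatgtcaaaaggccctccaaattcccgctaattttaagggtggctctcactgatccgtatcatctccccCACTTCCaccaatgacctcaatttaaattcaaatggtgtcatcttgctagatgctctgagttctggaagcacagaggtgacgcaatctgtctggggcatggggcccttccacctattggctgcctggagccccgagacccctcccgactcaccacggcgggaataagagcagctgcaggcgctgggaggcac
Cd68 promoter: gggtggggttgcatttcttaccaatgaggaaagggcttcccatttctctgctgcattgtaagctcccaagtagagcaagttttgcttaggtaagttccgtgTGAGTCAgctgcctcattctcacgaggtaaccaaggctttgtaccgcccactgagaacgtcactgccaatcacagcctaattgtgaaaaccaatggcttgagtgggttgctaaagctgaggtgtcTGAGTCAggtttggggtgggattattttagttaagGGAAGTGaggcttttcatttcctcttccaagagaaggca
Olr1 promoter: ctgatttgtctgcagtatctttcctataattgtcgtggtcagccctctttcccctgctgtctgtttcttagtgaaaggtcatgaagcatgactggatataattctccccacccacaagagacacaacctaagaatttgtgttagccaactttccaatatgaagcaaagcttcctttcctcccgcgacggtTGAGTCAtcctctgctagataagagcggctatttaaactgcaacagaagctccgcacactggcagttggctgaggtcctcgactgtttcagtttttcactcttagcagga
A match of letters is a description of the sequence and does not show that a factor binds there.

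The other groups place these changes by fiber length and type. Against SNT, given at the same dose, LNT differed in 1634 genes (8.81%), with 1162 higher and 472 lower. Calca was 6.93 higher in LNT than in SNT (adjusted p = 4.7e-06), Trem2 4.41 (adjusted p = 4e-06), and Ccl8 5.32 (adjusted p = 7.2e-06). SNT against VC, which shares the VC mice, had 0 called genes in limma, with 741 at an unadjusted p under 0.05. Side by side, the changes against VC in LNT and SNT were 4.6 and −0.14 for Timp1, 3.39 and −0.08 for Derl3, 2.66 and −0.46 for Cdkn2a, and −2.23 and −1.07 for Ppargc1a. Arg1 at 6.07 in LNT was at 3.36 in SNT, where the mice measured −2.82, −2.49, 5.19, and 3.89, and Alb in the same SNT mice was at 0.73, −0.68, 10.14, and 9.82. Arg1 did not differ by the test between LNT and SNT (2.70, adjusted p = 0.29). Nr4a1 changed by −1.84 in LNT, −1.96 in SNT, −2.05 in SFA, and −1.13 in LFA, and the difference between LNT and SNT was 0.11 (adjusted p = 0.89).

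Between LNT and LFA, which were given at 5 and 25 μg, 0 genes were called in limma and 277 had an unadjusted p under 0.05, with a lowest adjusted p of 0.797. A p above the threshold does not show that both fibers act alike, and the median SE of a difference was 0.37. The changes against VC, side by side for LNT and LFA, were 6.85 and 5.43 for Calca, 5.09 and 4.55 for Ccl8, and 4.6 and 3.74 for Timp1. The genes with the smallest p between them included Chil4, chosen here after its values were seen, which was 2.86 ± 0.50 higher in LNT than in LFA. The LFA mice measured −4.26, −4.64, −6.42, and −4.32 for Chil4, within the VC range of −6.37 to −4.23 except for 1 mouse. Its adjusted p was 0.797 or more.

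**Figure D5:**
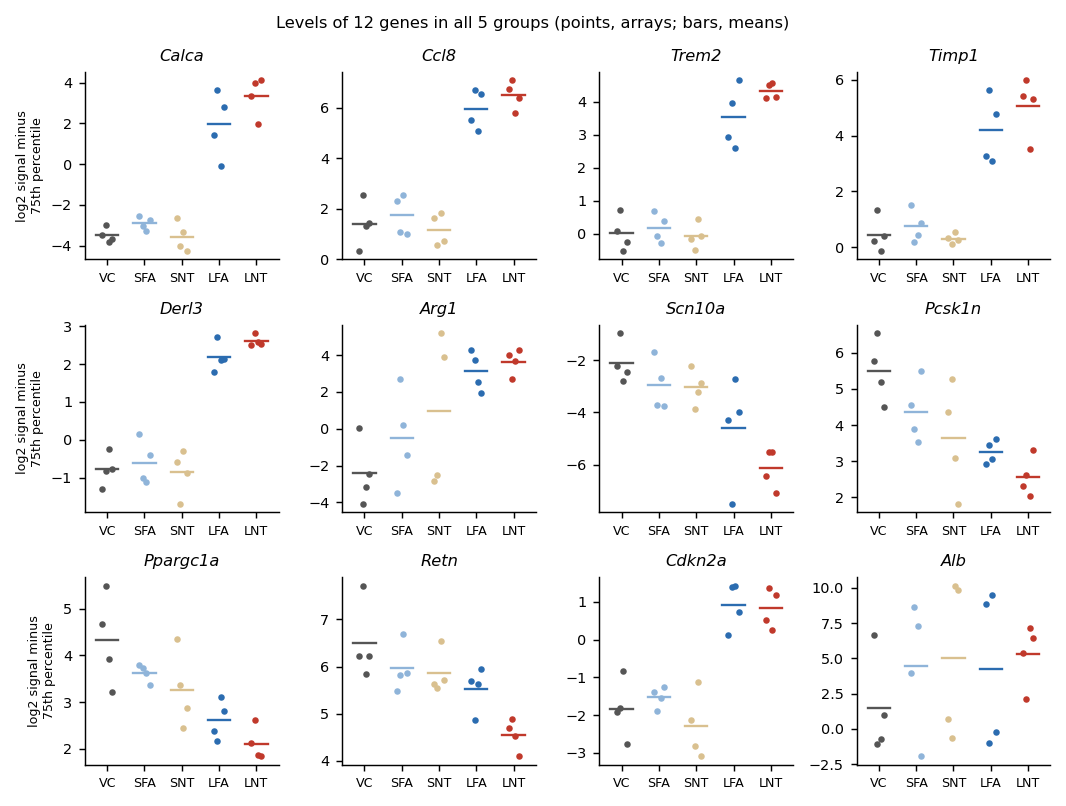
Level of 12 genes (log2 signal relative to the array's 75th percentile, vertical axis) in all mice of VC, SFA, SNT, LFA, and LNT, with points for mice and bars for means. Calca, Ccl8, Trem2, Timp1, and Derl3 lie higher in both long-fiber groups than in VC, while Alb is spread over a wide range in every group, from −1.09 to 6.68 in VC.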

How the data were processed

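Total RNA from the diaphragms of 20 mice, 4 per group, was labeled with Cy3 and hybridized to one-color Agilent mouse arrays, 1 mouse per array. The deposited scanner files hold intensity values that the authors obtained with Agilent Feature Extraction 10.7.3.1, which subtracted the background and removed spatial trends, with probe annotation on build NCBI37. A further deposited table holds log2 values that the authors normalized and centered per probe in GeneSpring and averaged by group. It was compared as the authors' means only (median absolute difference of 0.0213 from the scanner values over 36930 probes).

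Control spots and spots marked as outliers (122 to 201 per VC or LNT array) were removed, spots of a probe were averaged, and the 75th percentile of each array was subtracted from log2 of its processed signals. No spot was saturated in these arrays. Of 55681 probes, 36930 that were well above background on at least 4 of 20 arrays were tested, representing 18549 gene symbols. Symbols are those of RefSeq for the 27235 probes matched to it by accession, and those of the array design for other probes that had one. A group-means model was fitted over all 20 arrays with limma 3.58.1 in R 4.3.3 (lmFit and eBayes), with Benjamini-Hochberg adjustment over all tested probes, and tables and plots were made in Python 3.11.15 with pandas 2.3.3, numpy 2.4.6, and matplotlib 3.10.9. A call needed a change of at least 2-fold and an adjusted p under 0.05. The p-values measure the spread between mice, and the number of arrays limits the precision. The fitting code was tested on simulated data.

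The part of the series described, the gene lists, and the rule for naming genes were chosen with earlier results of these data known. The rule named the 15 genes with the largest change in each direction (apart from clones and predicted genes, of which 2 each could be named) whose groups did not overlap and which were well above background throughout the higher group, the first gene of each list, up to 5 called genes of each list with the largest change, and genes the study measured by other assays. List members without a call and genes in chromosomal runs could also be named. Il13, Il10, Socs3, Mrc1, Tyrobp, Fcgr3, Fcer1g, Ch25h, Abcg1, Adgre1, Csf1r, Ptges2, C1qc, Cfd, Lox, Vcan, and Lyn lie outside this rule and were chosen after their values were seen. Some genes that the rule would name are not reported here.

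The labels number the mice of each group from 1 to 4. Deviations of same-numbered VC and LNT arrays from their group means correlated at 0.223, 0.689, 0.112, and 0.332, and the numbers were taken to pair the arrays. Arrays with different numbers were not compared in this way, so these values do not establish a pairing. The pairing is an assumption, since the labels do not say what a shared number means. Alternatives were quantile normalization, normexp background correction with an offset of 50, the percentile over the 25107 probes well above background on all arrays, and other filters. Further ones were the mean over the probes of a gene, the VC and LNT arrays alone, and slide or replicate number as a block. Array brightness or the index of 5′ against 3′ signal as a covariate, a t-test with unequal variances, and leaving out each array were also run. That t-test was adjusted over all tested probes, whereas the authors tested only probes with a 2-fold change. Scan day as a block was added after seeing the data.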

Additional observations from a re-analysis of the deposited data

Results flagged for a closer look

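Among the genes named above, 552 sets of 4 mice of a group were examined for a single mouse whose gap to the next one exceeded Dixon's critical value relative to the range of the group. This held for 42 sets (7.61%), where chance gives about 1 in 20. VC 2 lay above the other mice of its group for Fam162b at −6.10, Ccl12 at 0.26, Il1r2 at −3.58, Lamp1 at 8.25, Dcn at 9.37, Lum at 5.84, Bex4 at 0.15, Ndufa1 at 9.09, Cpt1b at 6.38, Hk1 at 8.29, Dgat2 at 8.21, Cxcl1 at −2.05, and Esrra at 6.45. VC 2 lay below them for Il1r1 at −1.50, Cd36 at −0.80, Selp at −2.84, Col5a1 at 0.90, Trp53 at −4.39, Fyn at −2.47, and Prox1 at −6.42. LNT 2 lay above the other mice of its group for Clec4n at 4.24, Fabp4 at 8.22, Alox5 at 2.44, Tnfrsf17 at 2.10, S100a4 at 6.79, Wt1 at 4.38, and Prx at 1.11. LNT 2 lay below them for Cd36 at −0.50, Nf2 at −0.27, and Calcrl at −7.17. VC 2 and LNT 2 were the VC and LNT arrays with the lowest index of 5′ against 3′ signal (−0.39 each), and VC 2 had the lowest 75th percentile of the signal (294), whose part in these values was not tested. LNT 3 lay above the other mice of its group for Gpnmb at 4.61, Itgax at 3.45, and Pik3r5 at 0.90. LNT 3 lay below them for Cx3cr1 at 0.36, Ccl17 at 1.21, and Calcb at −1.75. LNT 1 lay above the other mice of its group for Col4a1 at 3.54 and Hoxc9 at −5.20. LNT 1 lay below them for Cxcl13 at 3.76. VC 1 lay below the other mice of its group for Itgam at 5.08. VC 3 lay above the other mice of its group for Ly9 at −1.80. VC 3 lay below them for Il13 at −7.29. Values are log2 relative to the 75th percentile of the array.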

How the results depend on the processing

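No called change of a named gene turned its direction under the settings run. Of 2514 probes, 1340 higher and 1174 lower, and of 855 higher and 671 lower genes, the scaling moved mainly the lower ones. Quantile normalization gave 598 lower probes and 319 lower genes (1558 and 1026 higher), and the percentile over probes well above background on all arrays gave 670 and 375 (1715 and 1149 higher). Normexp correction gave 757 lower probes. With slide as a block, 1328 probes were called, 846 higher and 482 lower, with 530 higher and 263 lower genes. With scan day as a block, chosen after seeing the data, 1187 probes were called, 809 higher and 378 lower, with 499 higher and 224 lower genes. With array brightness in the fit, 1367 probes were called, with 364 lower probes and 206 lower genes. With the index of 5′ against 3′ signal in the fit, the count rose to 4082 probes, with 2261 lower probes and 1273 lower genes. A t-test with unequal variances, adjusted over all tested probes, called 487 probes, 308 higher and 179 lower, with 179 higher and 99 lower genes. The authors applied their unequal-variance test only to probes with a 2-fold change, so these counts are not those of their procedure. The cause of these differences was not tested.

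Leaving out each array in turn gave 1391 (without LNT 4) to 3095 probes (without SNT 4), 914 to 1481 of them higher and 477 to 1614 lower, with 574 to 953 higher and 262 to 849 lower genes. Without LNT 1, 1557 probes were called. Through every left-out array, 489 of the 855 higher genes (57.2%) and 186 of the 671 lower genes (27.7%) remained called. With the replicate block, that is with same-numbered arrays paired, 2230 probes were called, 1221 higher and 1009 lower, with 774 higher and 533 lower genes, and 763 and 508 of the genes above were among them. Of the genes called and described above, Adipoq, Cfd, Cldn15, and Pdpn lost their call under this pairing, which changed no other call of a described gene. In the authors' means, all 855 and 671 genes had the same direction, but these means come from the same arrays and are no separate support.

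Of 184 called genes described above, 35 lost their call with array brightness in the fit, namely Arg1, Mmp12, Ankrd34b, Bex4, Slc26a3, Spa17, Cxcl13, Cxcl2, Fpr2, Gpnmb, C1qb, Serpina3g, Gata2, Cldn15, Col5a1, Col1a2, Thbs1, Ltbp2, Nek2, Myh1, Pvalb, Hk3, Pgam2, Adipoq, Nr4a1, Ncmap, Prx, F7, Fcgr3, Fcer1g, Cfd, Clec4a4, Clec4b1, Oas3, and Esrra. With slide as a block 21 lost it, namely Ankrd34b, Slc26a3, Cxcl13, Cxcl2, Tlr2, Oas2, Itgal, Cldn15, Pdpn, Col1a1, Col5a1, Col1a2, Ltbp2, Adipoq, Ncmap, Cfd, Clec4a4, Clec4b1, Cd48, Oas3, and Oas1c. With scan day as a block 23 lost it and with the t-test of unequal variances 126. Under normexp correction 23 lost their call, as given beside each, and 41 changes were over 1.5 times smaller. The number of arrays and, for dim genes, the signal over background limit what could be called.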
